A study of Mus musculus with 10 samples.

Results

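The Myc family and its partners were followed as 8 genes: the activators Myc, Mycn and Mycl, their shared partner Max, and the Max-binding antagonists Mxd3, Mxi1, Mnt and Mga. They were chosen by gene symbol as the core of the network and matched by Ensembl identifier, and all 8 were among the 31053 genes listed in the count tables. Transcripts were counted in mouse embryonic stem (ES) cells of the E14 line stably carrying an Esrrb construct that doxycycline (DOX) switches on, so every group held the same construct. Esrrb encodes an orphan nuclear receptor that helps to hold naive pluripotency. The 3 conditions were: 96 h after removal of 2iL with DOX (96 h DOX, 3 libraries), 96 h after removal of 2iL without DOX (96 h no DOX, 3 libraries), and cells kept in 2iL without DOX (4 libraries). 2iL joins the GSK3 inhibitor CHIR99021, the MEK inhibitor PD0325901 and the cytokine LIF in serum-free N2B27 medium, and holds ES cells in the naive state. The titles place the libraries of every group in experiments 1 and 2. The labels do not say whether the line was 1 clone or what sets the experiments apart. Nothing in them says that the libraries of the same experiment came from separate cultures. The p-values therefore measure the spread between these libraries, which may be technical. In the main fit, libraries of the same experiment count as separate replicates.

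Myc proteins are short-lived transcription factors that bind DNA only as dimers with Max, mostly at the E-box hexamer CACGTG, and raise genes for ribosome making, metabolism and cell growth. Max also pairs with Mxd3, Mxi1, Mnt and Mga, which bring corepressors to the same sites, so the make-up of the Max dimers sets the balance between activation and repression. In ES cells LIF signalling is known to raise Myc transcription, GSK3 marks the Myc protein for breakdown, Myc and Mycn can stand in for each other, and Mga with Max keeps germline genes silent as part of a variant polycomb complex.

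RNA was read at the 3′ ends of polyA transcripts, so a library gives reads per gene and levels are not compared between genes. The 96 h DOX libraries held 1253620 to 4161567 reads in genes, the 96 h no DOX libraries 3364638 to 4715450 and the 2iL libraries 2769071 to 3586901. Levels are library-scaled counts (CPM, with scaling factors from the trimmed mean of M-values, TMM), and a change is a log2 fold change ± its standard error (SE) from edgeR's quasi-likelihood test, called at an adjusted p under 0.05. The DOX library exp1_2 stood apart: 14.8% of its reads fell on Gm42418, against 3.39% to 6.61% in the other 9 libraries. Mitochondrial reads made up 3.10%, against 0.559% to 1.27%, and ribosomal protein genes 7.06%, against 13.1% to 16.4%. With 1253620 reads in genes it was the shallowest library. It also had raised fibroblast markers, so some results with DOX are also given without it. Its count file also carries a later date in its name than those of the other 9 libraries, while its title places it in experiment 1, where it was kept in the blocks and in every value given for experiment 1. The labels do not say what that date stands for, and its part in the results was not tested. Esrrb itself had 12.8, 26.9 and 14.6 CPM in 96 h DOX libraries, against 23.7, 13.5 and 31.9 CPM in 96 h no DOX libraries and 377, 228, 330 and 322 CPM in 2iL libraries. The 3′ reads of Esrrb thus showed no rise with DOX (log2 fold change -0.32 ± 0.33, adjusted p = 0.704), and they report on the construct only if it carries the 3′ end of the gene. The 8 ES cell markers were read in every group, and summed to 2337 to 2570 CPM with DOX, 1741 to 1981 CPM at 96 h without DOX and 1718 to 2197 CPM in 2iL. At 96 h without DOX against 2iL, 3 of the 8 were called lower and 2 higher. Those lower were Zfp42, with a mean of 18.9 CPM without DOX and 186 CPM in 2iL, Dppa5a, with 34.3 CPM without DOX and 248 CPM in 2iL, and Sox2, with 168 CPM without DOX and 337 CPM in 2iL. With DOX against 2iL, 2 were called higher and 1 lower, and with DOX against no DOX 2 were called higher.

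Promoters of the members are shown because the network's own binding letters can be read in some of them. RefSeq (build GRCm38.p6) gave 9 promoter windows for 7 of the 8 members, each running from 250 bases before to 50 bases after a start site. The E-box CACGTG lay in the windows of Max and Mnt, the E2F letters GCGCGAAA in that of Mycn, and neither in any of the 3 windows of Mxi1, of which the first is shown. Capitals mark those letters, which were searched on both strands.
Max promoter, chr12:76962199-76962498, minus strand, GRCm38.p6: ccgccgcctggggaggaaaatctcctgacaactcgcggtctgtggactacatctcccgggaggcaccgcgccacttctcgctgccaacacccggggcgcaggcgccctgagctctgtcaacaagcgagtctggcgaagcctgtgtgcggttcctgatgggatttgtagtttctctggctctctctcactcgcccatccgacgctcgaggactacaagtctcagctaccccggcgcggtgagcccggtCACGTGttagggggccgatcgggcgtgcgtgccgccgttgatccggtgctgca
Mnt promoter, chr11:74830674-74830973, plus strand, GRCm38.p6: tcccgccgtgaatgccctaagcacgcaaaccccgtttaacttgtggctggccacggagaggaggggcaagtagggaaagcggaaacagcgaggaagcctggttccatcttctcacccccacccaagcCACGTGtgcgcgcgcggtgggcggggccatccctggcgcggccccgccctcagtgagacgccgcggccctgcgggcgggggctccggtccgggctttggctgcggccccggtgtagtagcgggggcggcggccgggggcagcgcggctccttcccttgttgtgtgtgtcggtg
Mycn promoter, chr12:12941787-12942086, minus strand, GRCm38.p6: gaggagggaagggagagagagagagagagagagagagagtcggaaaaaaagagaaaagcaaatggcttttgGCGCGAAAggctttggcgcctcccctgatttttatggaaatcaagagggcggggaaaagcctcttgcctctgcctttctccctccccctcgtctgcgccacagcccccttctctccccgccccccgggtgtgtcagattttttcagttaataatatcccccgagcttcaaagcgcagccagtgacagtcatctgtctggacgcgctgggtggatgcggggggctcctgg
Mxi1 promoter, chr19:53310256-53310555, plus strand, GRCm38.p6: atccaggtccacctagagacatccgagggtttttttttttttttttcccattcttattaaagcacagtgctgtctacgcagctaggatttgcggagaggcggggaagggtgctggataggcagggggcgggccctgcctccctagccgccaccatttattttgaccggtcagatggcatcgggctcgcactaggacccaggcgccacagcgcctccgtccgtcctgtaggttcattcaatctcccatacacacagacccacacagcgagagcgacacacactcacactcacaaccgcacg
Counted from the start site, the E-box began at base -3 in Max and at base -123 in Mnt, and the E2F letters began at base -179 in Mycn. Of 32851 RefSeq promoter windows of the same length, 7.15% held the E-box and 0.323% held the E2F letters. The letters AAGGTCA (an Esrrb half-site, in 4.72% of windows), TTCNNNGAA (STAT, 8.30%) and ATCAAAG (TCF, 3.73%) were in none of the 9 windows. A match is only a description of the letters, and its absence concerns these windows alone.

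**Figure D1:**
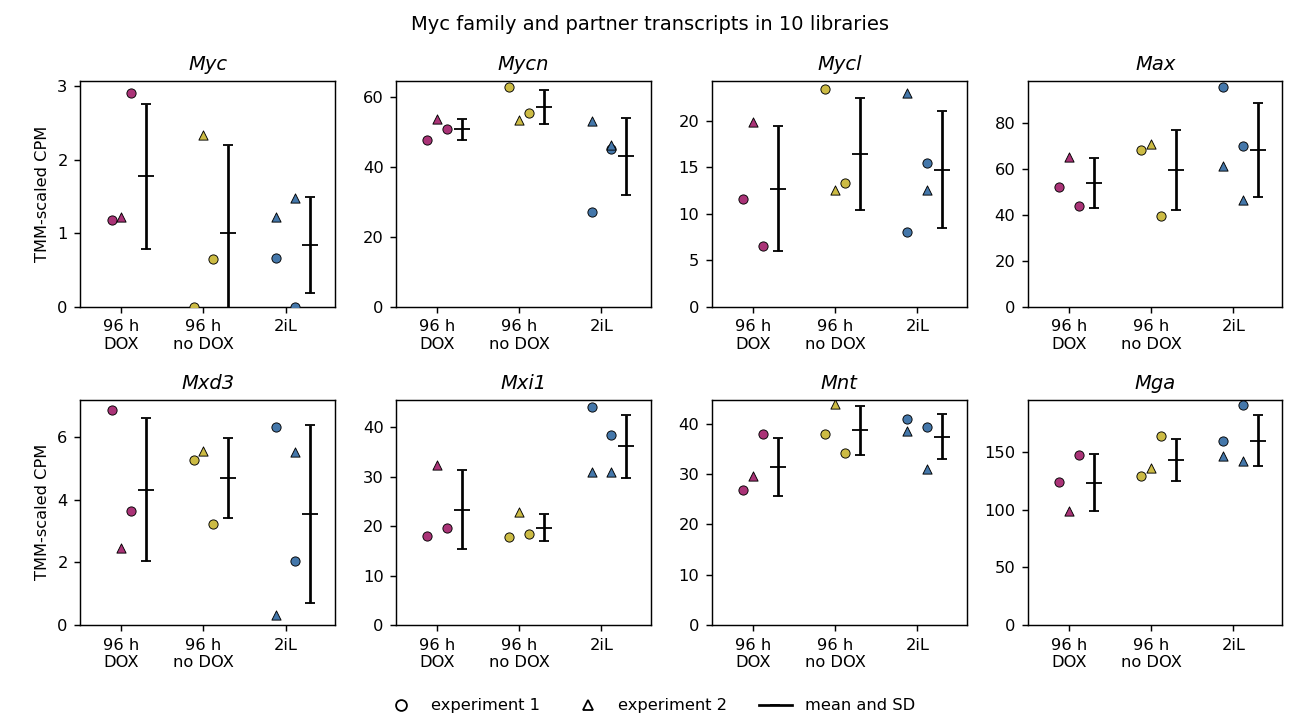
Levels of the 8 members in every library (y axis: TMM-scaled CPM, each panel with its own scale starting at 0), with circles for experiment 1, triangles for experiment 2 and bars for the group mean and SD (SD bars of Myc are cut at 0). The points of 96 h no DOX and 2iL do not overlap for Mxi1 and, by a narrow gap, for Mycn. How many of all genes tested show such a gap was not counted. Myc stays below 3 CPM in every library.

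After 96 h without 2iL and without DOX, 1 of the 7 members that could be tested was called, the antagonist Mxi1, which was lower. That share was near the background, since 20.4% of all 11215 genes tested were called in the same comparison (11.5% higher and 8.9% lower). With DOX against no DOX at 96 h, edgeR called 0 of 7 members, where 3.1% of all genes were called (2.16% higher, 0.945% lower). With DOX against 2iL it again called 0 of 7, where 16.7% of all genes were called (9.84% higher, 6.83% lower). In both DOX comparisons 0 members had an unadjusted p under 0.05, and DESeq2, limma-voom and limma on log2(CPM + 1) called 0 as well. Those 2 comparisons share the DOX libraries, and both comparisons with 2iL share its libraries, so they are not independent. The median log2 fold change of the 7 tested members was 0.05 for 96 h no DOX against 2iL, -0.17 for DOX against no DOX and -0.26 for DOX against 2iL. The medians over all genes tested were 0.00, -0.02 and 0.02 in the same order of comparisons. In bulk RNA, fewer cells that express a gene and less of its RNA per cell cannot be told apart, and this holds for every change given here.

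Myc (ENSMUSG00000022346, GENCODE vM21 on mm10, chromosome 15, 61985391 to 61990374, plus strand) encodes c-Myc, the founding member of the family. It was hardly detected: it had 5, 4 and 4 reads in the 96 h DOX libraries (exp1_1, exp2_1 and exp1_2), 0, 3 and 8 reads in the 96 h no DOX libraries (exp1_1, exp1_2 and exp2_2) and 2, 0, 4 and 4 reads in the 2iL libraries (exp1_1, exp1_2, exp2_1 and exp2_2). The groups overlapped, and the gene failed the filter on low counts. Pooled over its group, Myc stood at 1.54 CPM without TMM scaling with DOX (95% exact Poisson interval 0.822 to 2.64), 0.951 without DOX (0.475 to 1.70) and 0.771 in 2iL (0.370 to 1.42). These intervals cover counting error only. Fitted without the filter, on 18318 genes, Myc had a log2 fold change of 0.23 ± 1.42 for 96 h no DOX against 2iL (adjusted p = 0.988). The same fit gave 0.75 ± 1.52 for DOX against no DOX (adjusted p = 0.889) and 0.98 ± 1.43 for DOX against 2iL (adjusted p = 0.717). A change of Myc was not detectable at this depth.

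Mycn (ENSMUSG00000037169, chromosome 12, 12936093 to 12941914, minus strand) encodes N-Myc, which is known to share the tasks of c-Myc in ES cells. It was read in every library, at 47.8, 53.9 and 51.0 CPM with DOX, 62.9, 55.4 and 53.6 CPM at 96 h without DOX, and 27.2, 45.2, 53.3 and 46.4 CPM in 2iL. All 3 no DOX libraries lay above all 4 in 2iL, though only narrowly, with 53.6 CPM in the lowest no DOX library and 53.3 CPM in the highest 2iL library. The means were 57.3 ± 4.93 CPM without DOX (SD, n = 3) and 43.0 ± 11.1 CPM in 2iL (SD, n = 4), a log2 fold change of 0.41 ± 0.25 that did not pass (95% interval -0.11 to 0.93, adjusted p = 0.289). With DOX Mycn averaged 50.9 ± 3.02 CPM (SD, n = 3), a change of -0.17 ± 0.27 against no DOX (adjusted p = 0.829) and of 0.25 ± 0.25 against 2iL (adjusted p = 0.570).

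The balance of the 2 genes was also read within each library, as log2 of Mycn reads over Myc reads with 0.5 read added to each. The ratio needs no scaling factor, but with 0 to 8 Myc reads a library it depends on depth and on the added 0.5 read. It averaged 6.46 ± 2.17 at 96 h without DOX (SD, n = 3) and 5.85 ± 1.63 in 2iL (SD, n = 4), a difference of 0.61 (two-sided exact permutation test, p = 0.629). With DOX it averaged 4.82 ± 0.739 (SD, n = 3), which was -1.64 against no DOX (p = 0.3, exact permutation test) and -1.03 against 2iL (p = 0.514, exact permutation test). Adjusted over the 3 comparisons every p was 0.629, and the design could not go below 0.1 for 3 libraries against 3 or 0.0571 for 3 against 4. The ratio was highest in the 2 libraries with 0 Myc reads, at 8.75 in no DOX exp1_1 and 8.28 in 2iL exp1_2. Leaving out no DOX exp1_1 turned the difference of no DOX against 2iL to -0.53, so its sign rested on that library, and that of DOX against no DOX to -0.50. Leaving out 2iL exp1_2 gave 1.42 for no DOX against 2iL and -0.22 for DOX against 2iL.

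Mycl (ENSMUSG00000028654, chromosome 4, 122995652 to 123002485, plus strand) encodes L-Myc, the third activator. Its levels were 11.6, 19.9 and 6.56 CPM with DOX, 23.4, 13.3 and 12.6 CPM without DOX, and 7.97, 15.5, 23.0 and 12.5 CPM in 2iL. The spread was wide within each group, and all groups overlapped. The log2 fold change was 0.15 ± 0.42 for no DOX against 2iL (adjusted p = 0.859), -0.33 ± 0.46 for DOX against no DOX (adjusted p = 0.798) and -0.17 ± 0.43 for DOX against 2iL (adjusted p = 0.834).

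Max (ENSMUSG00000059436, chromosome 12, 76937269 to 76962201, minus strand), the shared dimer partner of the activators and of the antagonists, had 52.1, 65.2 and 43.7 CPM with DOX, 68.2, 39.5 and 70.9 CPM without DOX, and 95.4, 69.7, 61.2 and 46.4 CPM in 2iL. The groups overlapped, and the highest value was that of a single 2iL library. Against 2iL the log2 fold change without DOX was -0.62 in experiment 1 and 0.39 in experiment 2. With DOX it was -0.77 and 0.28. Experiment 2 has 1 library in each 96 h group, and neither difference between experiments passed. No comparison passed: the log2 fold change was -0.20 ± 0.28 for no DOX against 2iL (adjusted p = 0.696), -0.13 ± 0.30 for DOX against no DOX (adjusted p = 0.882) and -0.33 ± 0.28 for DOX against 2iL (adjusted p = 0.469).

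Mxi1 (ENSMUSG00000025025, chromosome 19, 53310518 to 53375810, plus strand), also called Mxd2, encodes a Max partner that recruits the Sin3 corepressor and opposes Myc. It had 18.0, 32.4 and 19.7 CPM with DOX, 17.8, 18.5 and 22.8 CPM at 96 h without DOX, and 44.2, 38.5, 30.9 and 30.9 CPM in 2iL. Every no DOX library lay below every 2iL library, while among the DOX libraries exp2_1 reached the 2iL range. Mxi1 averaged 19.7 ± 2.72 CPM without DOX (SD, n = 3) and 36.1 ± 6.45 CPM in 2iL (SD, n = 4), a fall of -0.87 ± 0.30 on the log2 scale (95% interval -1.50 to -0.24, adjusted p = 0.0457 in edgeR's quasi-likelihood test).

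The fall of Mxi1 kept its sign in all 21 alternative fits but passed in only 9, with adjusted p between 0.0231 and 0.147. It was lost without any 1 of the 7 libraries compared, for which the log2 fold change was -0.99 to -0.76 and the adjusted p 0.0600 to 0.147. By experiment, the log2 fold change was -1.20 within experiment 1 alone (adjusted p = 0.0759) and -0.44 within experiment 2, which has 1 no DOX library and no test. The difference between the experiments was 0.75 ± 0.56 and did not pass (adjusted p = 0.776). With DOX, Mxi1 averaged 23.4 ± 7.90 CPM (SD, n = 3). Its log2 fold change was 0.26 ± 0.32 against no DOX (adjusted p = 0.769) and -0.62 ± 0.30 against 2iL (95% interval -1.25 to 0.02, adjusted p = 0.183). The change against 2iL with DOX was -1.13 in experiment 1 and 0.07 in experiment 2, a difference of 1.20 ± 0.56 (adjusted p = 0.770 in edgeR's quasi-likelihood test). Among 21 such differences, 7 members in 3 comparisons, it had the smallest unadjusted p, and the smallest adjusted p was 0.695 in edgeR's test.

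Markers of other cells moved between the same groups, and their part in the Mxi1 result was not tested. The 8 neural markers summed to 898 to 1471 CPM at 96 h without DOX and to 204 to 747 CPM in 2iL, mostly Tubb3, with 2 of the 5 that could be tested called higher. The proneural gene Neurog2 had at most 1 read in any library.

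By a rule of likeness, the patterns closest to Mxi1 over the 10 libraries were those of Rdh13, Ankrd10 and Cnot10, among 7703 genes with a mean of at least 10 CPM. Their root mean square log2 difference from Mxi1 was 0.149, 0.154 and 0.168, where Mxi1 itself varied by 0.455 about its own mean. Rdh13 averaged 21.9 ± 5.99 CPM with DOX (SD, n = 3), 17.0 ± 3.23 CPM without DOX (SD, n = 3) and 33.6 ± 6.90 CPM in 2iL (SD, n = 4). Likeness here is a description over libraries that share their group means.

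Mxd3 (ENSMUSG00000021485, chromosome 13, 55325168 to 55329823, minus strand), a Max partner of the Mxd group linked to dividing cells, had few reads. There were 29, 8 and 5 reads with DOX, 18, 15 and 19 without DOX, and 19, 7, 1 and 15 in 2iL. The groups overlapped, and the SE of each change was large: 0.41 ± 0.75 for no DOX against 2iL (adjusted p = 0.776), -0.08 ± 0.80 for DOX against no DOX (adjusted p = 0.978) and 0.33 ± 0.76 for DOX against 2iL (adjusted p = 0.821). Its 3′ end overlaps that of Prelid1 on the other strand by 105 bases, and Prelid1 had 92 to 1790 reads per library. The sources used here do not give the strand setting of the counting, so the count of Mxd3 is uncertain.

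Mnt (ENSMUSG00000000282, chromosome 11, 74830920 to 74845725, plus strand) encodes a widely expressed antagonist, which recruits Sin3 as the Mxd proteins do. It had 26.8, 29.7 and 37.9 CPM with DOX, 38.0, 34.2 and 43.9 CPM without DOX, and 40.9, 39.4, 38.6 and 30.9 CPM in 2iL. The groups overlapped in each comparison, with log2 fold changes of 0.05 ± 0.26 for no DOX against 2iL (adjusted p = 0.933), -0.31 ± 0.28 for DOX against no DOX (adjusted p = 0.656) and -0.26 ± 0.26 for DOX against 2iL (adjusted p = 0.553).

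Mga (ENSMUSG00000033943, chromosome 2, 119897228 to 119969581, plus strand) encodes a very large Max partner with a T-box as well as a Myc-like DNA-binding domain. It had 124, 98.9 and 148 CPM with DOX, 129.9, 165 and 136 CPM without DOX, and 160.2, 191, 147 and 143 CPM in 2iL. The DOX libraries tended to lie low, but exp1_2 reached into both other groups. The log2 fold change was -0.16 ± 0.21 for no DOX against 2iL (adjusted p = 0.688), -0.22 ± 0.23 for DOX against no DOX (adjusted p = 0.713) and -0.37 ± 0.22 for DOX against 2iL (adjusted p = 0.263). Without exp1_2 the last value was -0.52 (adjusted p = 0.116), still not past the threshold.

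**Figure D2:**
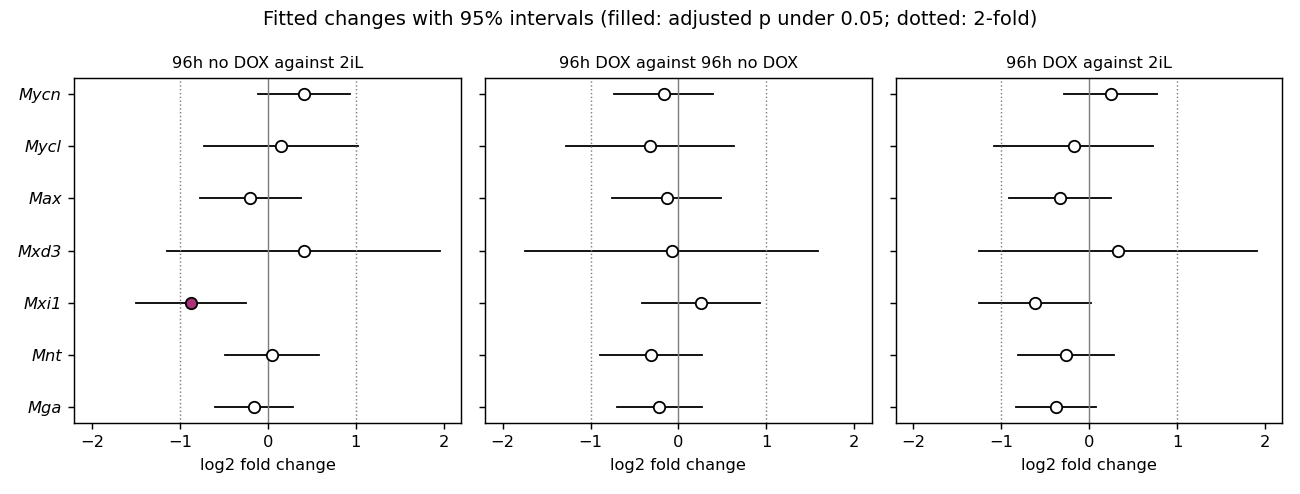
Fitted log2 fold change (x axis) of the 7 tested members in each comparison, with 95% intervals as bars, filled where the adjusted p was under 0.05 and dotted lines at a 2-fold change. Only Mxi1 at 96 h without DOX against 2iL is filled, and the bars of Mxd3 and Mycl reach past 2-fold in every comparison.

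Given the spread between these libraries, which may be technical, the intervals limit how large an unseen change could be. They set no limit for other cultures. For 4 of the 7 tested members, Mycn, Max, Mnt and Mga, the 95% interval lay within a 2-fold change either way in all 3 comparisons. For Mycl and Mxd3 it lay within 2-fold in none of the 3, and for Mxi1 in 1. Over all 3 comparisons the interval bounds ran from -0.83 to 0.29 on the log2 scale for Mga and from -1.75 to 1.96 for Mxd3. A missed threshold does not show that the level stayed the same.

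Among the DOX libraries, markers of primitive endoderm, the extraembryonic lineage that Gata6 and Gata4 specify, were raised, and their part in the values with DOX was not tested. Of 11 such genes tested, 9 were called higher with DOX against no DOX, and the 12 listed summed to 958 to 2230 CPM with DOX, 334 to 534 CPM without DOX and 376 to 563 CPM in 2iL. Sox7, 1 of these markers, had 0 reads in every library without DOX. The 8 fibroblast markers summed to 10.7 to 1920.5 CPM with DOX, where the top value was that of exp1_2, against 17.2 to 19.9 CPM without DOX and 1.99 to 9.58 CPM in 2iL. Postn, a fibroblast marker, had 75 reads in exp1_2 and 0 in the other 9 libraries. Without exp1_2, the members' log2 fold changes with DOX against no DOX ran from -0.46 for Mnt to 0.35 for Mxi1. Again 0 passed in either DOX comparison. Leaving it out moved Mycl from -0.33 to -0.07 against no DOX, and from -0.17 to 0.08 against 2iL. Mxd3 against no DOX moved from -0.08 to 0.01.

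Beside the 8 members stand 5 other genes of the extended network, among them further antagonists and the Max-like protein Mlx. Of these 5, 1 was called higher at 96 h without DOX against 2iL, and 2 were called higher with DOX against 2iL. Over all genes tested, those shares were 11.5% and 9.84%. With DOX against no DOX edgeR called 0 of the 5, where 1 had an unadjusted p under 0.05. DESeq2 called 1 there and both limma fits called 0. Mxd4, an antagonist of the Mxd group known from differentiating cells, had 24.9, 14.7 and 51.7 CPM with DOX, 44.2, 38.5 and 25.5 CPM without DOX, and 11.0, 3.21, 11.3 and 5.53 CPM in 2iL. All 6 libraries at 96 h exceeded all 4 in 2iL. Mxd4 rose without DOX by 2.21 ± 0.44 (adjusted p = 0.000872) and with DOX by 1.93 ± 0.45 (adjusted p = 0.00462), both on the log2 scale against 2iL, and both calls held in the 18 alternative fits. By experiment the change without DOX was 2.56 and 1.58 in experiments 1 and 2, and with DOX 2.42 and 0.79. This rise ran opposite in sign to the fall of Mxi1, which belongs to the same Mxd group.

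Mlx, which pairs with Mondo proteins and with some Mxd proteins in place of Max, had 19.4, 33.1 and 32.8 CPM with DOX, 9.65, 16.8 and 5.27 CPM without DOX, and 12.6, 13.1, 9.80 and 9.21 CPM in 2iL. Every DOX library exceeded every other library. Against 2iL, Mlx rose with DOX by 1.33 ± 0.39 on the log2 scale (adjusted p = 0.0215), a call that was lost in 6 of 18 alternative fits (adjusted p up to 0.246), among them those without DOX exp1_2, DOX exp2_1, 2iL exp2_1 or 2iL exp2_2. Against no DOX the change was 1.40 ± 0.42 and missed the threshold (adjusted p = 0.0788). Mxd1 (-1.05 ± 0.57 for DOX against no DOX, adjusted p = 0.409), Mlxip (1.45 ± 0.67 for no DOX against 2iL, adjusted p = 0.147) and Mlxipl did not pass in any comparison.

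**Figure D3:**
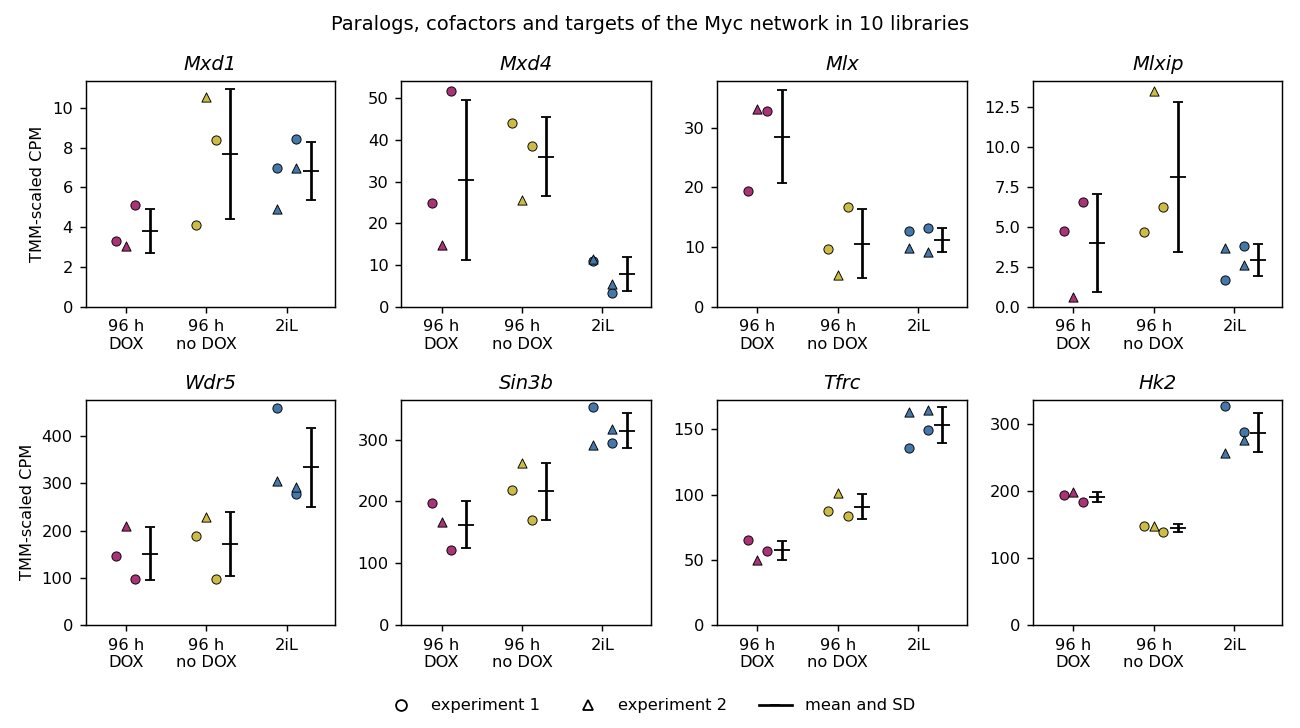
Levels of 4 further network genes (top row) and 4 cofactors or targets (bottom row) in every library (y axis: TMM-scaled CPM from 0), with circles for experiment 1, triangles for experiment 2 and bars for the mean and SD. Mxd4 lies higher at 96 h than in 2iL in each library, Mlx lies higher with DOX, and Wdr5, Sin3b, Tfrc and Hk2 lie lower at 96 h than in 2iL.

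Genes for proteins that Myc or its antagonists recruit were mostly not called. Over all genes tested, 8.9% were called lower without DOX against 2iL and 6.83% with DOX against 2iL. Of 13 Myc coactivators (chromatin and elongation factors), 0 were higher and 1 was lower in each comparison with 2iL, and it was Wdr5 both times, a subunit of histone methyltransferase complexes that binds Myc. Wdr5 had 147, 209.7 and 96.9 CPM with DOX, 188, 96.5 and 229 CPM without DOX, and 459, 277, 305 and 293 CPM in 2iL. Its log2 fold change against 2iL was -0.96 ± 0.30 without DOX (adjusted p = 0.0248) and -1.13 ± 0.30 with DOX (adjusted p = 0.0123). The call without DOX was lost in 3 of 18 alternative fits, those without 2iL exp1_1, no DOX exp1_1 or no DOX exp1_2 (adjusted p up to 0.133), and the call with DOX in 1, that without 2iL exp1_1 (adjusted p = 0.0514). The count of 1 was not stable: without DOX exp1_2 it was 2 in each comparison with 2iL. For DOX against 2iL it was also 2 without DOX exp1_1, DOX exp2_1 or 2iL exp1_2, and 2 with DESeq2 and both limma fits, while 3 had an unadjusted p under 0.05. With DOX against no DOX, edgeR called 0 of the 13, 0 had an unadjusted p under 0.05, and DESeq2 and both limma fits called 0. The median over the 13 was -0.18 without DOX and -0.32 with DOX against 2iL.

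The corepressor list of 7 genes held corepressors of Mxd and Mnt, and also Zbtb17, which encodes the transcription factor Miz1. Of these 7, only Sin3b, a scaffold that Mxd proteins bind, was called. It had 197, 167 and 122 CPM with DOX against 353, 295, 291 and 317 CPM in 2iL (log2 fold change -0.94 ± 0.23, adjusted p = 0.00651). That call was lost within experiment 1 alone (adjusted p = 0.0969). At 96 h without DOX, Sin3b had 218, 169.7 and 262 CPM, below the 2iL range too, with -0.54 ± 0.22 against 2iL (adjusted p = 0.103). Of the 10 partners of Mga and Max in the variant polycomb complex, 1 passed with DOX against 2iL, Yaf2 (1.61 ± 0.53 higher on the log2 scale, adjusted p = 0.0407), and that call was lost in 6 of 18 alternative fits (adjusted p up to 0.215), including those without DOX exp1_2, no DOX exp1_1 or any of 2iL exp1_1, exp1_2 and exp2_1. With DOX against 2iL, 6.83% of all genes tested were called lower and 9.84% higher. In the other comparisons edgeR, DESeq2 and both limma fits called 0 genes of the corepressor list and 0 polycomb partners. At an unadjusted p under 0.05 these were 2 genes of the corepressor list and 3 partners for no DOX against 2iL, and 0 and 0 for DOX against no DOX.

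Enzymes that set the life of the Myc proteins, such as the ubiquitin ligase gene Fbxw7 and the kinase gene Gsk3b, gave 0 calls among 10 genes in all 3 comparisons by edgeR, DESeq2 and both limma fits. At an unadjusted p under 0.05 the counts were 0 for no DOX against 2iL, 1 for DOX against no DOX and 1 for DOX against 2iL. Protein amounts were not measured.

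Known targets that Myc raises were read in 2 lists, both picked with earlier results of these libraries known. Of 22 genes for ribosome making and the nucleolus, edgeR called 0 at 96 h without DOX against 2iL and 0 with DOX against no DOX, and 1 was lower with DOX against 2iL. At an unadjusted p under 0.05 those counts were 0, 1 and 3, and DESeq2 called 0, 0 and 1. Of all genes tested, edgeR called 6.83% lower with DOX against 2iL. The median log2 fold change was -0.03 for no DOX against 2iL, -0.10 for DOX against no DOX and -0.12 for DOX against 2iL. The gene called was Rrs1, a ribosome assembly factor (-0.74 ± 0.21, adjusted p = 0.0206). Its call was lost in 5 of 18 alternative fits, among them those without 2iL exp2_1, 2iL exp2_2 or DOX exp2_1 (adjusted p up to 0.335). Ncl, which encodes nucleolin, a main protein of the nucleolus, gave 0.04 ± 0.26 for no DOX against 2iL (adjusted p = 0.936).

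Of 30 target genes for metabolism and growth, 0 rose in any comparison. At 96 h without DOX against 2iL 3 fell, and 5 fell with DOX against 2iL. Over all genes tested, 8.9% and 6.83% were called lower in those comparisons, and 11.5% and 9.84% higher. Against no DOX, edgeR called 0 with DOX, where 3 had an unadjusted p under 0.05, DESeq2 called 1 and both limma fits called 0. The list's median was -0.07 for no DOX against 2iL, -0.17 for DOX against no DOX and -0.27 for DOX against 2iL. Tfrc, the transferrin receptor that brings iron into cells, had 64.9, 50.2 and 56.8 CPM with DOX, 87.8, 83.4 and 101 CPM without DOX, and 136, 149.7, 163 and 165 CPM in 2iL. The 3 groups did not overlap at all, with 2iL on top and DOX at the bottom. Against 2iL, Tfrc fell without DOX (-0.76 ± 0.21, adjusted p = 0.0127) and with DOX (-1.41 ± 0.22, adjusted p = 0.000105), and with DOX against no DOX its value was -0.66 ± 0.23 (adjusted p = 0.140). The call without DOX was lost without no DOX exp1_1 or exp1_2 and within experiment 1 (adjusted p up to 0.175).

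Hk2, a hexokinase that starts glycolysis, had another order of groups: 194, 198 and 184 CPM with DOX, 148, 139 and 149 CPM without DOX, and 328, 289, 258 and 276 CPM in 2iL. In edgeR's test it fell against 2iL both without DOX (-0.99 ± 0.20, adjusted p = 0.00111) and with DOX (-0.58 ± 0.20, adjusted p = 0.0499). The call with DOX lay just under the threshold, and alternative fits of Hk2 were read only for no DOX against 2iL. With DOX against no DOX Hk2 had 0.41 ± 0.21 (adjusted p = 0.373 in edgeR's test). Shmt1, an enzyme of one-carbon metabolism, fell without DOX against 2iL (-0.99 ± 0.25, adjusted p = 0.00666) and with DOX against 2iL (-0.90 ± 0.25, adjusted p = 0.0155), and both calls were lost within experiment 1 (adjusted p = 0.120 and 0.150). Cdc25a, a phosphatase that drives the cell cycle, fell with DOX against 2iL (-0.99 ± 0.22, adjusted p = 0.00307). The count of falling genes depended on exp1_2: without that library it was 5 for no DOX against 2iL and 3 for DOX against 2iL.

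Of 12 listed genes that Myc or Mycn is known to repress, 10 were tested: 4 rose and 1 fell at 96 h without DOX against 2iL, 2 rose with DOX against no DOX, and 5 rose with DOX against 2iL. Of all genes tested, 11.5% were called higher and 8.9% lower in the first comparison. The shares were 2.16% and 0.945% in the second, and 9.84% and 6.83% in the third. Of all genes called, 56.4%, 69.5% and 59.0% were higher in that order of comparisons. The list's median log2 fold changes were 0.65, 0.99 and 1.73 in that order of comparisons. Itga1, with 0 reads in 2iL, passed the filter only through the 96 h groups, and Gata6 is also a primitive endoderm marker. Both stand in these counts and medians. The list was picked with earlier results of these libraries known, so its counts are not independent evidence. Gadd45a, a growth arrest and DNA damage gene, had 31.5, 33.4 and 29.2 CPM with DOX, 10.5, 12.2 and 11.4 CPM without DOX, and 2.99, 6.71, 6.43 and 3.32 CPM in 2iL. The 3 groups stood apart, with DOX on top: the rise was 1.21 ± 0.38 for no DOX against 2iL (adjusted p = 0.0263), 1.46 ± 0.39 for DOX against no DOX (adjusted p = 0.0415) and 2.67 ± 0.38 for DOX against 2iL (adjusted p = 4.57e-05). The call for DOX against no DOX was lost in 8 of 18 alternative fits, among them those without any 1 of the 6 libraries compared (adjusted p up to 0.273).

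The integrin gene Itga6 rose against 2iL without DOX (0.89 ± 0.22, adjusted p = 0.00668, but up to 0.195 without no DOX exp1_2 or within experiment 1) and with DOX (1.73 ± 0.23, adjusted p = 1.87e-05). Itga1, another integrin gene, had 0 reads in all 4 of the 2iL libraries. By reads it was at least 22.6-fold higher with DOX and at least 11.2-fold higher at 96 h without DOX, against a floor of 3 reads over the 2iL group. Ndrg2, a gene of the N-Myc downstream-regulated family, had 48.3, 28.2 and 24.1 CPM with DOX, 35.4, 18.7 and 19.0 CPM without DOX, and 14.0, 13.7, 6.12 and 6.63 CPM in 2iL. Every library at 96 h exceeded every 2iL library. Ndrg2 rose without DOX against 2iL (1.26 ± 0.38, adjusted p = 0.0227), a call lost in 4 of 18 alternative fits, those without 2iL exp2_1, 2iL exp2_2 or no DOX exp1_1 and within experiment 1 (adjusted p up to 0.254). Cdkn1a, the p21 inhibitor of cyclin-dependent kinases and a much cited target of Myc repression, fell at 96 h without DOX against 2iL (-0.87 ± 0.29, adjusted p = 0.0348). Its call was lost in 9 of 18 alternative fits (adjusted p up to 0.242), among them those without any 1 of the libraries compared except 2iL exp1_2. The list's counts moved with the libraries. For no DOX against 2iL, leaving out 1 of the libraries compared gave 2 to 5 calls, against 5 with all. The experiment 1 libraries alone gave 1 there. Leaving out DOX exp1_2 gave 6 calls in each comparison with 2iL, against 5 with all. For DOX against no DOX, leaving out exp1_2 left 1 call, that of Gata6, which is itself a primitive endoderm marker raised with DOX (5.93 ± 0.67, adjusted p = 2.31e-05).

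**Figure D4:**
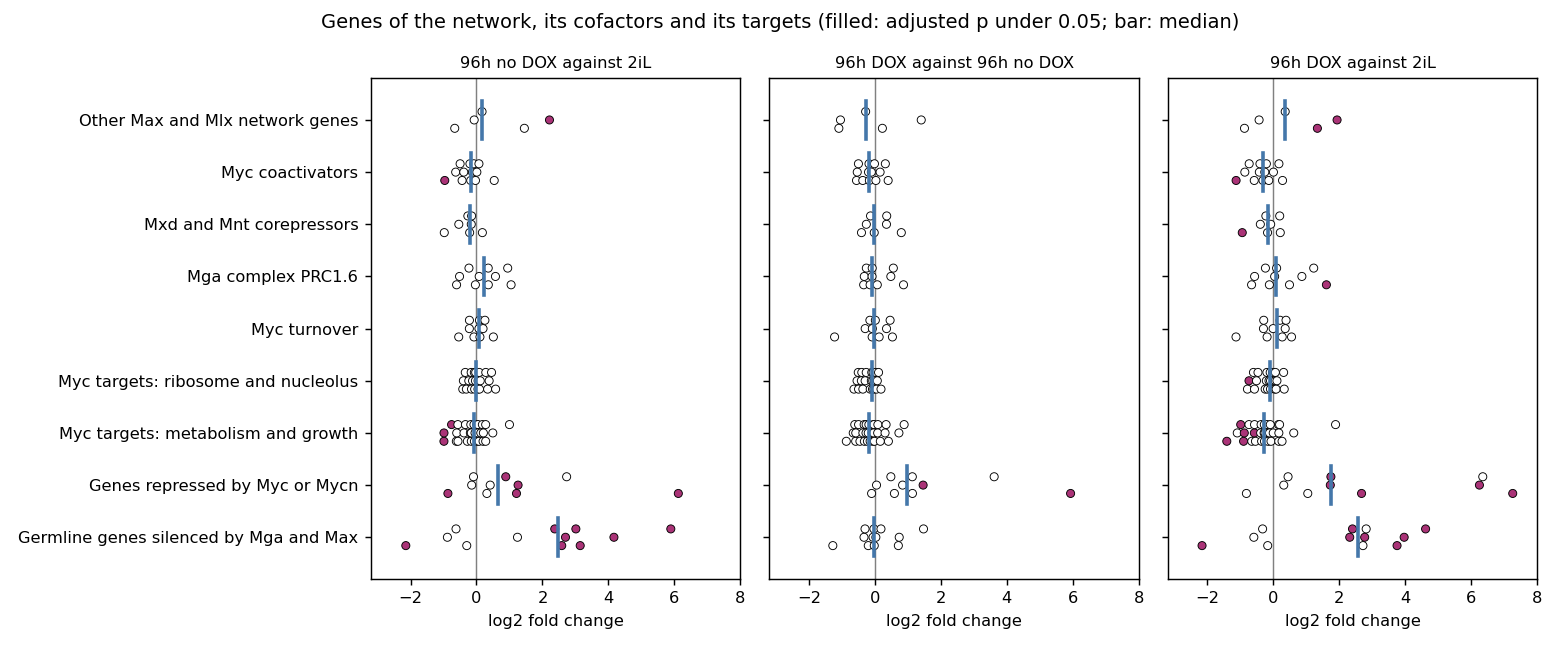
Fitted log2 fold change (x axis) of every tested gene of 9 lists in each comparison, filled where the adjusted p was under 0.05, with a bar at each list's median (fitted values of genes with 0 to 3 reads in 1 group, such as Itga1 and Tdrd1, are not bounds on the fold). The 2 lists of targets that Myc raises cluster around 0. The list of genes that Myc or Mycn represses has its median to the right, at 0.65, 0.99 and 1.73 in panel order. The germline list lies to the right in both comparisons with 2iL but around 0 for DOX against no DOX.

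Germline genes that loss of Max, Mga or their polycomb complex is known to raise changed with the removal of 2iL and were not called between DOX and no DOX. Of 15 listed, 12 were tested. Of these, Tdrd1 and Mael had 2 reads each over the 2iL libraries and passed the filter only through the 96 h groups. Against 2iL they could hardly be called lower, yet they stand in the counts and medians given here. At 96 h without DOX against 2iL 7 rose and 1 fell, where 11.5% of all genes rose and 8.9% fell. With DOX against 2iL 6 rose and 1 fell, where 9.84% of all genes rose and 6.83% fell. With DOX against no DOX edgeR called 0, 0 had an unadjusted p under 0.05, and DESeq2 and both limma fits called 0. The medians were 2.48 for no DOX against 2iL, -0.03 for DOX against no DOX and 2.56 for DOX against 2iL. These genes are also known to be held down by DNA methylation, and the rise of meiosis genes was known from these libraries when the list was picked, so the count is not independent evidence. Mga, Max and the 10 complex partners gave 0 calls for no DOX against 2iL by edgeR, DESeq2 and both limma fits, where 3 of the partners had an unadjusted p under 0.05. For DOX against 2iL edgeR called 1 of the partners, Yaf2, higher. These RNA levels do not measure what the complex does, and the cause of the germline changes was not tested.

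Sycp3, a protein of the meiotic chromosome axis, had 31.0, 17.4 and 40.1 CPM with DOX, 22.5, 18.7 and 11.4 CPM without DOX, and 1.66, 3.21, 2.45 and 1.11 CPM in 2iL. Every library at 96 h exceeded every 2iL library, with a rise of 3.01 ± 0.45 on the log2 scale without DOX (adjusted p = 4.58e-05) and 3.75 ± 0.45 with DOX (adjusted p = 7.53e-06). Zcwpw1, a histone reader of meiosis, rose likewise, by 2.70 ± 0.41 without DOX (adjusted p = 5.75e-05) and 2.40 ± 0.41 with DOX (adjusted p = 0.000346). Tdrd1, a gene of the piRNA pathway, had 44 reads over the DOX libraries, 139 over the no DOX libraries and 2 over the 2iL libraries. Its ratio of read shares was 33.8 with DOX against 2iL (95% counting interval 8.83 to 288) and 77.9 without DOX against 2iL (21.2 to 649.7). Dazl, an RNA-binding protein of germ cells, went the other way, with 5.21, 2.14 and 4.37 CPM with DOX, 4.39, 4.51 and 2.93 CPM without DOX, and 11.6, 17.8, 24.8 and 16.2 CPM in 2iL. Its fall was -2.14 ± 0.47 without DOX (adjusted p = 0.00216) and -2.16 ± 0.49 with DOX (adjusted p = 0.00366), and both calls were lost within experiment 1 (adjusted p = 0.0821 without DOX and 0.141 with DOX). Within experiment 1 alone the list gave 4 calls in each comparison with 2iL, against 8 and 7 with all libraries.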

How the data were processed

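Expression was read in 10 libraries of polyA RNA by 3′ digital gene expression. The deposited files held whole-number counts of reads per gene, which the authors made with bcl2fastq, STAR 2.6.0a and HTSeq on mm10, per the submitters' processing notes. The sources used here name neither the annotation release nor the strand setting of the counting. The 5 HTSeq summary lines, which held 62.7% to 68.4% of all reads (mostly reads with several alignments, 56.4% to 62.4%), were left out. A deposited CPM table was not used.

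Groups came from the sample titles. Genes were filtered by group with filterByExpr (minimum count 10), which kept 11215 of 31053, and scaled by TMM. All 10 libraries entered 1 quasi-likelihood model (edgeR 4.0.16 with R 4.3.3), whose group means were contrasted, with Benjamini-Hochberg adjustment over all tested genes. The SE is the fold change divided by the root of the F statistic. The script was tested on simulated data. Experiments were compared with an interaction term. Alternatives were each library left out, RLE scaling, library totals, other filters, only the 2 groups compared, blocks for the experiment, alone or with the library number, experiment 1 alone, DESeq2 1.42.0, and limma 3.58.1 by voom or on log2(CPM + 1). Lists and their genes were given only the fits with edgeR among these, beside the counts by tool stated with them. Replicate numbers were not used to pair the libraries in the main fit. Same-numbered libraries of different groups had correlated deviations over 0.1 in 1 of 8 pairs (-0.09 to 0.20). Pairs of the same experiment passed 0.1 in 4 of 17, and pairs across experiments in 1 of 16. So few pairs cannot exclude a pairing.

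The text names all 8 members, up to 3 genes per direction with the smallest p among the called genes of each of 9 lists in each comparison, and for a called member the 3 genes most like it. Ncl, Prelid1, Gm42418, Fbxw7, Gsk3b, Mxd1, Mlxip, Mlxipl, Mael, Zbtb17 and the single cell type markers were named outside that rule. A named gene's other comparisons stand beside the one that named it. The members and lists were chosen with earlier results of these data known. Symbols were attached by Ensembl identifier (30934 of 31053 matched), positions came from GENCODE vM21 and promoters from RefSeq. Library depth limits the precision. The intervals of pooled levels and of ratios of read shares, and the floors, cover counting error only. The intervals of fitted fold changes also cover the spread between libraries.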

Additional observations from a re-analysis of the deposited data

Results flagged for a closer look

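In 3 of 29 genes examined, each in the 4 libraries of 2iL, 1 library stood far from the other 3 by the gap between neighbouring values, where chance alone gives about 1 group in 20. Wdr5 had 459 CPM in exp1_1, against 277 to 305 CPM in the others. Zcwpw1 had 15.5 CPM in exp1_2, against 4.29 to 5.65 CPM. Tdrd1 had 0.612 CPM in exp2_1 and 0 CPM in the others, which is 2 reads against 0. With 3 values at 0 the gap measure takes its highest value whatever the fourth is, so the chance rate does not apply to Tdrd1. None of the 3 is a member of the Myc family, and no member was flagged. Without 2iL exp1_1, the call of Wdr5 against 2iL was lost both without and with DOX.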

How the results depend on the processing

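The only call among the members, Mxi1 at 96 h without DOX against 2iL, was lost in 12 of 21 alternatives: the count of members called was 1, and 0 to 1 with 1 library left out. It was 0 with library totals (log2 fold change -0.82, adjusted p = 0.0657), with no filter (-0.88, adjusted p = 0.0665), with the experiment as a replicate block (-0.87, adjusted p = 0.0501), with blocks for both experiment and library number (-0.83, adjusted p = 0.101) and within experiment 1. The cause of these losses was not tested, beyond the fewer libraries of some. RLE scaling, a minimum count of 20, the 2 groups alone, DESeq2 and both limma fits kept the call. In the DOX comparisons 0 members were called under every alternative run, blocks included, with 0.0758 as the smallest adjusted p (Mxi1, DOX against 2iL, without DOX exp2_1). Under RLE scaling and library totals the 7 tested members kept the sign of each change. Library totals moved the median of all genes for DOX against 2iL to 0.17, against 0.02, and the share of calls that were higher to 70.9%, against 59.0%.

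Counts over all genes set the background. For DOX against no DOX, 348 genes were called, 564 with no filter, 212 with only the 2 groups, 159 with blocks for both experiment and library number, 108 within experiment 1, 563 with DESeq2, and 161 to 358 with 1 library left out, the lowest without no DOX exp1_1 (181 without no DOX exp2_2). For no DOX against 2iL the count was 2289 and for DOX against 2iL 1870, against 1226 and 926 within experiment 1. The experiment as a block changed no other call of a member.

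Depth limits Myc and Mxd3, whose reads per library reached at most 8 and 29. Experiment 2 has 1 library in each 96 h group and allows no test of its own. Experiment 1 alone uses 2 libraries a group.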
